A study of Mus musculus with 16 samples.

Results

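Accessible chromatin was described at Kat2a, Kat2b and Tada3, 3 genes whose products belong to both ATAC and SAGA, the histone acetyltransferase complexes that were perturbed in these cells. All peaks that the authors' annotation assigns to these genes by name were taken, 14 of the 70150 peaks in the deposited table, with 1 peak at Kat2a, 11 at Kat2b and 2 at Tada3. ATAC-seq reads open DNA through the sites where the transposase Tn5 can insert adapters, and it was run on 16 libraries of E14 cells, a mouse embryonic stem (ES) cell line. There were 4 libraries each of AID-Zzz3, AID-Yeats2, Supt7l KO and wild type (WT). AID-Zzz3 and AID-Yeats2 carry an auxin-inducible degron on a subunit found in ATAC only, and Supt7l KO lacks a structural subunit of SAGA. WT cells received auxin (IAA) too, so each library comes from cells with 24 h of auxin, grown on gelatine in serum medium. The medium held the cytokine LIF at 1500 U/ml, the GSK3 inhibitor CHIR99021 at 3 µM and the MEK inhibitor PD0325901 at 1 µM. The libraries used 100000 cells, 25 nM Tn5 and 14 PCR cycles, and were read as pairs of 100 bp. The series text names 2 independent clones and 2 days, but gives no clone or day for a library, so the spread between 4 libraries may be partly technical. Protein levels were not measured here, no peak at Supt7l was analysed here, and none of the 5 peaks at Zzz3 or the 5 at Yeats2 was called against WT, so these data do not check the depletion or the knockout.

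Kat2a (GCN5) and Kat2b (PCAF) are paralogous lysine acetyltransferases that take the same place in the complexes and acetylate histone H3. Tada3 (ADA3) is an adaptor that, with Sgf29 and a Tada2 protein, holds the enzyme and raises its activity on nucleosomes. Tada2a serves this role in ATAC and Tada2b in SAGA. Accessibility at a gene's peaks is a measure of open chromatin and not of its RNA or protein, and in a bulk library fewer open cells and less opening per cell cannot be told apart.

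The promoters are shown because the peaks at Kat2a and Tada3 cover their start sites while the upstream start of Kat2b has no peak of its own. The sequences are RefSeq windows (GRCm38.p6, the same assembly as mm10) from 250 bases before to 50 after the annotated start, 5′ to 3′ in the direction of transcription. Capitals mark matches to 9 short motifs searched on both strands.

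Kat2a, chr11:100712418-100712717, minus strand: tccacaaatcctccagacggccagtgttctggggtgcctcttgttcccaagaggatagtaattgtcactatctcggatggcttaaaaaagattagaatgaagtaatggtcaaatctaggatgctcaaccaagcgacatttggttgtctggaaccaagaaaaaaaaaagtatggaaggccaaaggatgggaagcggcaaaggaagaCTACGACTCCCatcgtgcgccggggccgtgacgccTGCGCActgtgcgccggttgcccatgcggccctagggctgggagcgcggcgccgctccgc

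Kat2b upstream start, chr17:53566721-53567020, plus strand: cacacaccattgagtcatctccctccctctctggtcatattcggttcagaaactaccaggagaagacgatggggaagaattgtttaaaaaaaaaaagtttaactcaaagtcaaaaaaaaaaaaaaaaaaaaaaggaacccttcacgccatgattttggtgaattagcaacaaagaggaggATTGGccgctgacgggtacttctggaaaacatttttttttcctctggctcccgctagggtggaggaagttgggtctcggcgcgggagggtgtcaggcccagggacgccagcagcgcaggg

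Kat2b internal start, chr17:53583876-53584175, plus strand: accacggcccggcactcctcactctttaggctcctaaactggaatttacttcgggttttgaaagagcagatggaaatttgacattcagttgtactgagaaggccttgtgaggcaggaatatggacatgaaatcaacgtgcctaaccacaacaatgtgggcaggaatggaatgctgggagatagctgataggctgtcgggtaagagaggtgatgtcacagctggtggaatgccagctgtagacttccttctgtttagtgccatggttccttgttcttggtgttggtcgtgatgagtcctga

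Tada3, chr6:113377789-113378088, minus strand: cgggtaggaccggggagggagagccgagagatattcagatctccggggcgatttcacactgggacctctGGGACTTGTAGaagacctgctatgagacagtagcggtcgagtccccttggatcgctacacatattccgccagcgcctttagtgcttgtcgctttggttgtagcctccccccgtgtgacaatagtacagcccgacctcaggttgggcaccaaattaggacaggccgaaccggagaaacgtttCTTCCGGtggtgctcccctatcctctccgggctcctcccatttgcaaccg

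Positions in these windows are counted from 0 at the start site. The Kat2a window held CTACGACTCCC, a match to the ZNF143 core motif, from position -45, and TGCGCA, the core of the NRF1 motif, from position -10. The Tada3 window held a ZNF143 core on the reverse strand (GGGACTTGTAG as printed) from position -181 and CCGGAAG, the core of ETS factors, on the reverse strand at position 0, with no overlap between the 2 matches in either window. CCAAT was found on the reverse strand at position -70 of the upstream Kat2b start, and no motif searched was found at the internal one. The ZNF143 core was searched as CTAC and TCCC with 3 bases between them, the middle one an A. Of all 32817 RefSeq windows, 1.25% held it, 7.75% TGCGCA, 8.86% CCGGAAG and 37.4% CCAAT. The other motifs, GGGCGG (35.6% of windows), TATAAA (13.6%), CACGTG (7.15%), TGACGTCA (1.79%) and AAGATGGC (2.74%), were in none of the 4 windows. The ZNF143 core was added after these sequences were seen, so its presence at 2 of the 3 genes is a description. GC content was 54.3% at Kat2a, 47% and 48.3% at the upstream and internal Kat2b starts, and 57.7% at Tada3, against a median of 52.7%. The observed to expected CpG ratio was 0.86 at Kat2a, 0.67 and 0.36 at the 2 Kat2b starts and 0.76 at Tada3, against a median of 0.38.

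The peaks lay on the genome (mm10) as follows. The only Kat2a peak, chr11:100711967-100712568, spans 602 bp at the promoter and overlaps the window above by 151 bp. The Tada3 promoter peak, chr6:113377332-113378595, spans 1264 bp and covers the whole window. It is shared with the neighbour Arpc4, an actin-related protein complex subunit, to which the RefSeq column of the authors' table assigns it at -150 bp from a start. The second Tada3 peak, chr6:113367907-113368969, lies in intron 8 of 8, with its centre 9.4 kb into the gene.

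Kat2b had peaks from 12.5 kb before its upstream start to 91.9 kb after it. Its 11 peaks are named here by the distance of their centre from that start. Those at -12.5 and -5.4 kb are intergenic, and the one at -5.4 kb lies in an RLTR11B long terminal repeat (LTR) of an endogenous retrovirus. The peak at +1.1 kb, chr17:53567444-53568737, is annotated to intron 1 and a CpG island, and its near edge is 423 bp beyond the promoter window of the upstream start. Those at +6.3 kb (in an RLTR19-int element) and +15.7 kb are in intron 1 as well. The peak at +17.1 kb, chr17:53583766-53584406, covers the internal start. Those at +20.3 and +21.4 kb follow it, and those at +89.7, +90.6 and +91.9 kb lie in or near intron 11, where the last ends shortly before the start of a short transcript. The RefSeq column assigns these last 3 to Sgo1, and 2 more peaks inside Kat2b are assigned to Gm6919 and are not counted among the 11.

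The total count in peaks was 2976435 to 4125944 in AID-Zzz3 libraries, 2492045 to 4775965 in AID-Yeats2, 3328620 to 4924352 in Supt7l KO and 4251953 to 5540559 in WT. No 2 libraries held identical counts. All 9 ES cell markers listed had a promoter peak, with a summed level of 249 to 296 CPM in AID-Zzz3, 266 to 299 CPM in AID-Yeats2, 301 to 320 CPM in Supt7l KO and 258 to 294 CPM in WT. Of 10 fibroblast markers 5 had a promoter peak, and their summed level was 57.8 to 84.3 CPM in AID-Zzz3, 59.4 to 68.8 CPM in AID-Yeats2, 56.4 to 68.0 CPM in Supt7l KO and 58.8 to 73.1 CPM in WT. CPM is a peak's count scaled by the library's TMM-scaled total in peaks.

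Per length, the Tada3 promoter averaged 45.9 CPM per kb over the 16 libraries, above 92.8% of promoter peaks, and the Tada3 intron peak averaged 27.4 CPM per kb. The Kat2a promoter averaged 15.8 CPM per kb, above 29.0% of promoter peaks. Within Kat2b the intergenic LTR peak at -5.4 kb was the most open at 41.7 CPM per kb, above 96.7% of all peaks. The order of these 2 peaks differed between genotypes, with the Tada3 promoter at 37.5 CPM per kb and the LTR peak at 40.8 CPM per kb in AID-Zzz3, both at 41 CPM per kb in AID-Yeats2, and the Tada3 promoter higher in Supt7l KO (55.5 against 41.8 CPM per kb) and in WT (49.3 against 43 CPM per kb). The CpG island peak at +1.1 kb followed at 26.4 CPM per kb and the internal promoter at +17.1 kb at 23.6 CPM per kb, and the other 8 Kat2b peaks averaged 12.5 to 22.6 CPM per kb. The median peak stood at 14.8 CPM per kb and the median promoter at 21.5 CPM per kb. The plot of Kat2b peaks by position shows the peak at -5.4 kb as the highest in each genotype, while the order below it varied. In AID-Zzz3 the peak at +6.3 kb (28.2 CPM per kb) was slightly above that at +1.1 kb (28.0 CPM per kb). In Supt7l KO the internal promoter (25.7 CPM per kb) was above that at +1.1 kb (24.2 CPM per kb).

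**Figure D1:**
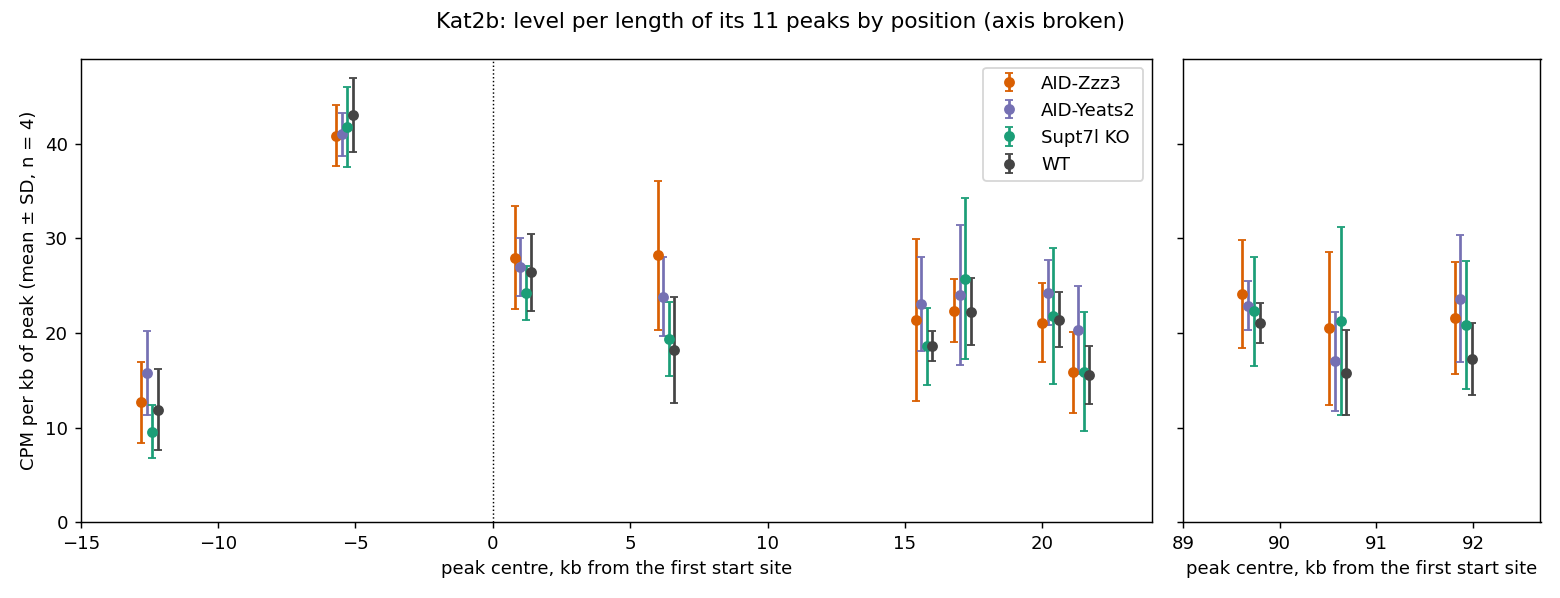
Level of the 11 Kat2b peaks (CPM per kb of peak, mean ± SD of 4 libraries) against the distance of the peak centre from the upstream start site (kb, broken axis), by genotype. The peak at -5.4 kb is the highest in each genotype, at 40.8 ± 3.22 CPM per kb in AID-Zzz3, 41 ± 2.28 in AID-Yeats2, 41.8 ± 4.23 in Supt7l KO and 43 ± 3.96 in WT.

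Each mutant was compared with WT to ask which open regions depend on the subunit. The 14 peaks passed the filter on low counts, and edgeR called none of them at an adjusted p under 0.05 in AID-Zzz3, AID-Yeats2 or Supt7l KO, where 0.98%, 0.822% and 1.09% of all peaks were called. DESeq2 called none either, but 3 of 18 alternative fits, given below, called the Tada3 promoter in AID-Zzz3. At an unadjusted p under 0.05 there were 3 of 14 in AID-Zzz3, 1 of 14 in AID-Yeats2 and 0 of 14 in Supt7l KO, against 14.3%, 13.4% and 12.4% of all peaks. AID-Yeats2 against AID-Zzz3, the comparison within ATAC, gave 0 calls among the 14 peaks and 0.0% among all peaks, with 0 of 14 and 5.13% at an unadjusted p under 0.05, and DESeq2 gave 0 calls over all peaks too. The mean of both ATAC lines was set against Supt7l KO to ask what differs between perturbing ATAC and perturbing SAGA, and here 1 of 14 peaks was called, the Tada3 promoter, against 17.6% of all peaks.

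**Figure D2:**
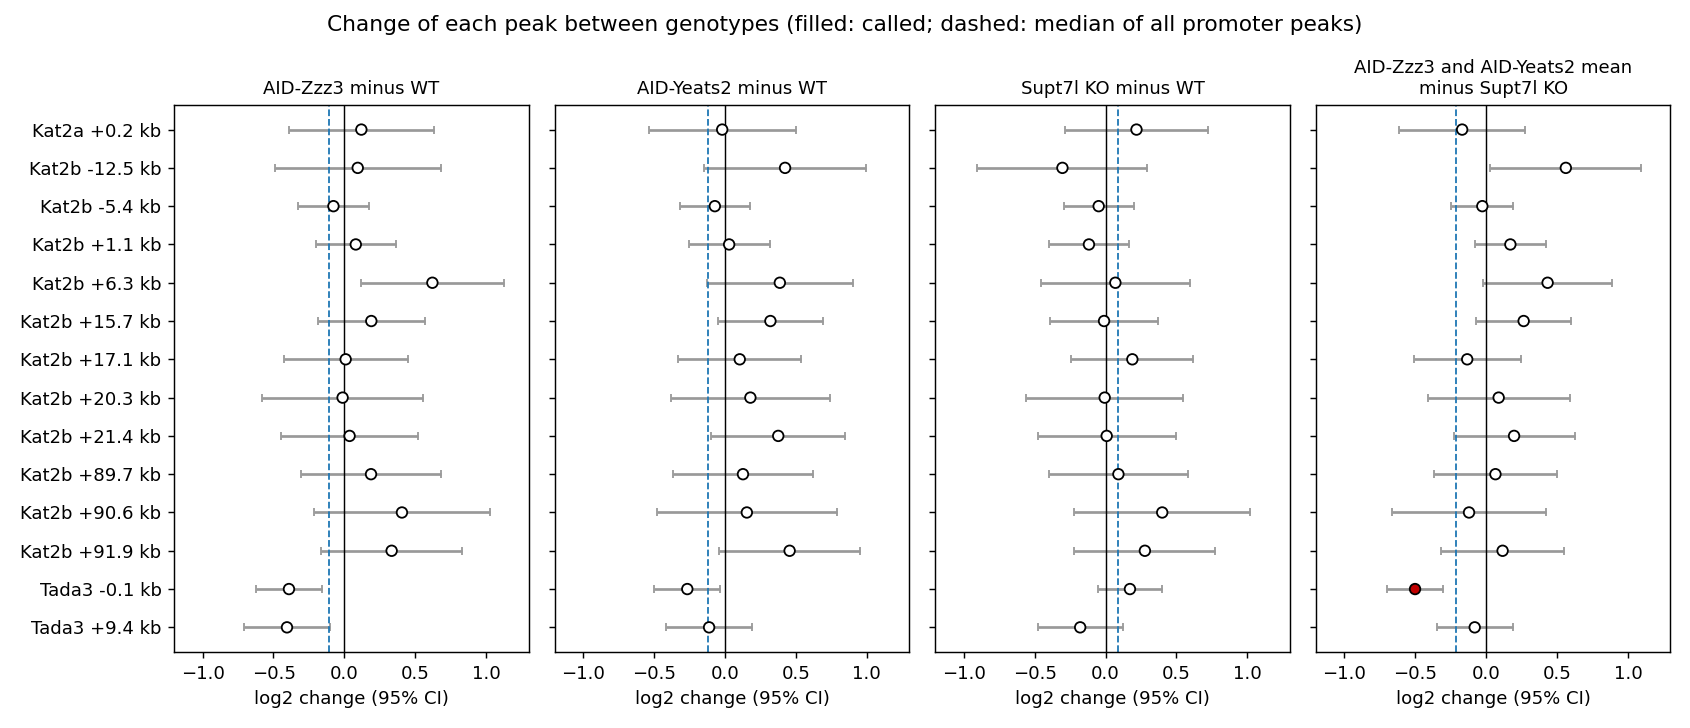
Log2 change of each of the 14 peaks (rows, by gene and distance of the peak centre from the start site) in 4 comparisons, with the 95% confidence interval as a bar. The filled point is the 1 called peak, the Tada3 promoter between the ATAC lines and Supt7l KO (-0.50), and the dashed line is the median of all promoter peaks.

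The Kat2a promoter did not pass the test in any of the 5 comparisons. It held 12.6, 11.3, 7.04 and 8.50 CPM in AID-Zzz3, 3.96, 10.1, 11.3 and 9.24 CPM in AID-Yeats2, 9.81, 10.5, 12.0 and 9.94 CPM in Supt7l KO and 11.9, 7.17, 5.76 and 11.5 CPM in WT. All groups overlapped, and the lowest library was the first of AID-Yeats2, where the value rests on 10 counts. The log2 change from WT was 0.12 (95% interval -0.39 to 0.63, adjusted p = 0.878, edgeR) in AID-Zzz3, -0.02 (-0.54 to 0.50, adjusted p = 0.985) in AID-Yeats2 and 0.22 (-0.28 to 0.72, adjusted p = 0.782) in Supt7l KO. With 10 to 64 counts per library, the intervals are wide, and any change within them remains compatible with the data. The ATAC lines against Supt7l KO gave -0.17 (-0.61 to 0.27, adjusted p = 0.650, edgeR).

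The 107 other peaks within 1 Mb of Kat2a had a median log2 change of -0.23 in AID-Zzz3, -0.19 in AID-Yeats2 and 0.08 in Supt7l KO against WT, and of -0.30 between the ATAC lines and Supt7l KO. The nearest of them, the promoter of the small heat shock protein gene Hspb9 at a distance of 711 bp, averaged 9.34 ± 2.52 CPM in AID-Zzz3, 9.42 ± 3.93 CPM in AID-Yeats2, 12.7 ± 2.23 CPM in Supt7l KO and 10.8 ± 2.89 CPM in WT (SD, n = 4). It was not called in any comparison, nor was the peak of Dhx58, a cytosolic RNA sensor, on the other side of Kat2a.

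**Figure D3:**
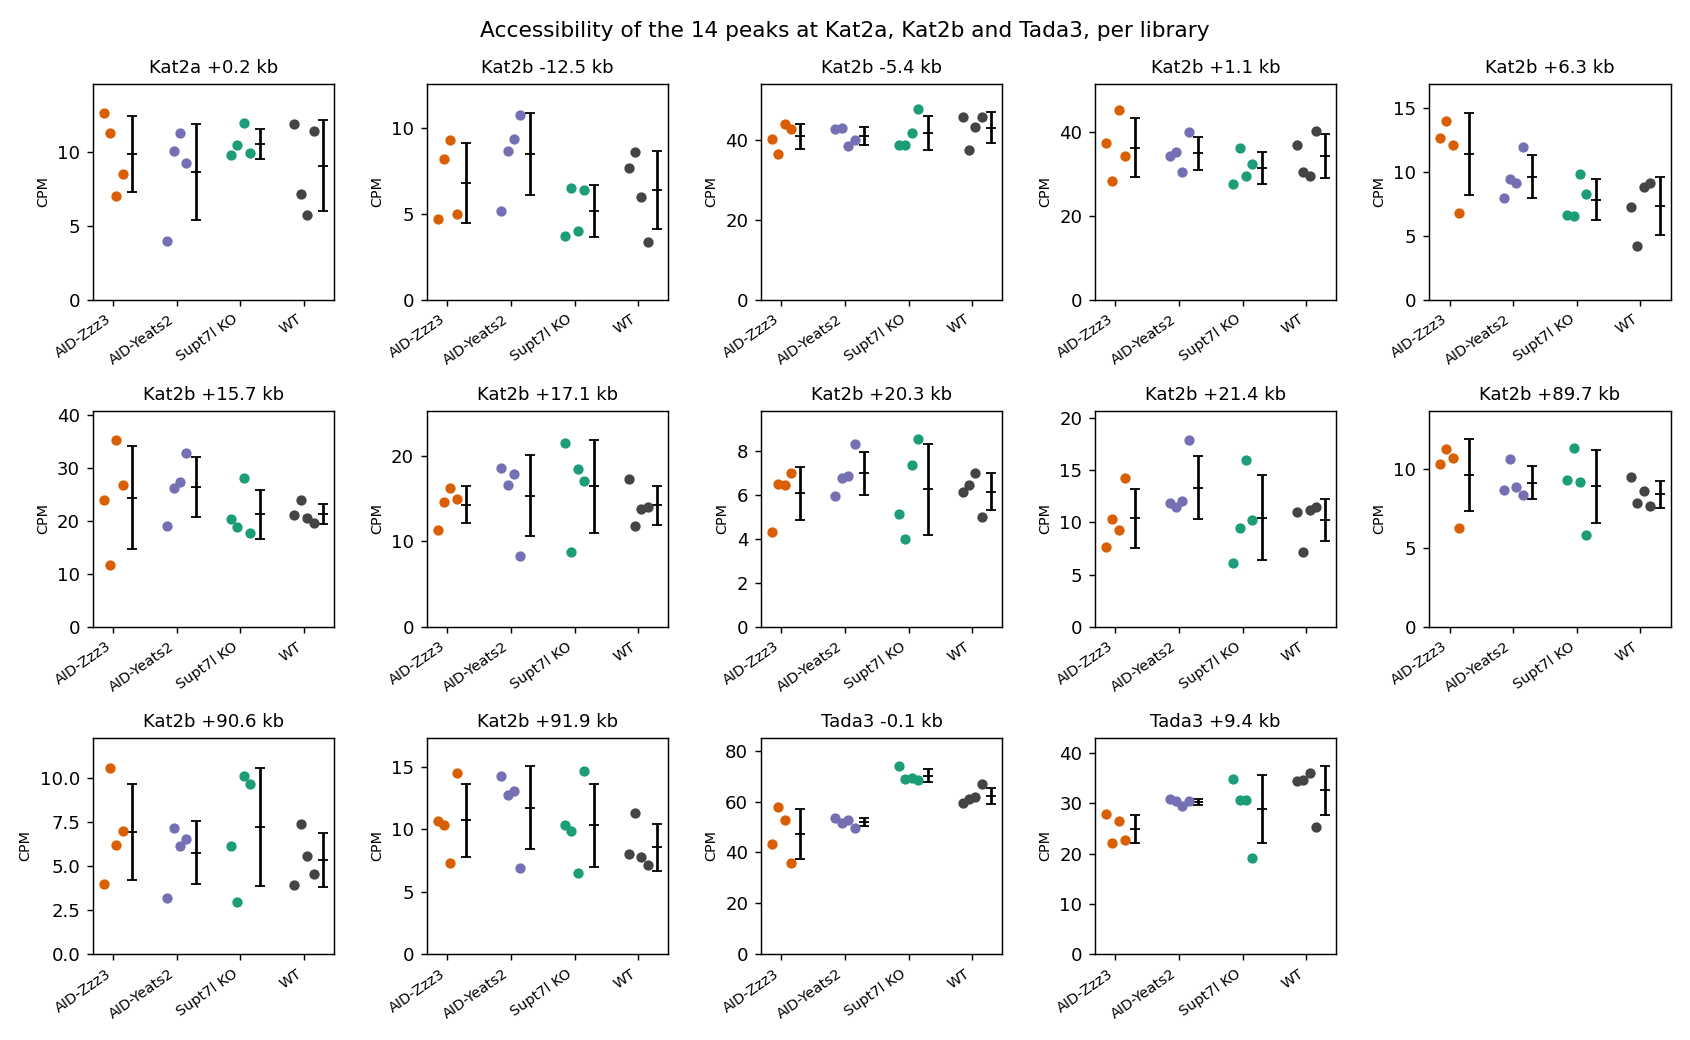
Level of each of the 14 peaks (CPM, 1 panel per peak) in the 16 libraries, with points for libraries 1 to 4 of a genotype from left to right and the mean ± SD beside them. The Tada3 promoter panel (-0.1 kb) shows 68.5 to 74.1 CPM in Supt7l KO, above the 35.8 to 57.8 CPM of the ATAC lines and the 59.6 to 66.9 CPM of WT.

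At Kat2b, none of the 11 peaks was called in the 5 comparisons. The LTR peak at -5.4 kb was the steadiest. It held 40.3, 36.6, 43.9 and 42.8 CPM in AID-Zzz3, 42.8, 43.1, 38.4 and 39.9 CPM in AID-Yeats2, 38.8, 38.8, 41.8 and 47.8 CPM in Supt7l KO and 45.8, 37.5, 43.2 and 45.9 CPM in WT. All groups overlapped, and the log2 change from WT was -0.08 (-0.32 to 0.17), -0.07 (-0.32 to 0.18) and -0.05 (-0.29 to 0.20) in AID-Zzz3, AID-Yeats2 and Supt7l KO, with adjusted p of 0.828, 0.858 and 0.917 (edgeR). These are the narrowest intervals among the Kat2b peaks.

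The CpG island peak at +1.1 kb, which is next to the upstream start, held 37.3, 28.2, 45 and 34.3 CPM in AID-Zzz3, 34.1, 35.1, 30.3 and 39.9 CPM in AID-Yeats2, 27.5, 36.1, 29.5 and 32.3 CPM in Supt7l KO and 36.9, 30.3, 29.3 and 40.2 CPM in WT. The groups overlapped, with log2 changes from WT of 0.08 ± 0.142, 0.03 ± 0.143 and -0.12 ± 0.143 (SE) in the 3 mutants. The internal promoter at +17.1 kb held 11.3, 14.7, 16.3 and 15.0 CPM in AID-Zzz3, 18.6, 16.6, 18.0 and 8.34 CPM in AID-Yeats2, 21.6, 8.81, 18.5 and 17.1 CPM in Supt7l KO and 17.3, 11.8, 13.9 and 14.1 CPM in WT. Here 1 library each of AID-Zzz3, AID-Yeats2 and Supt7l KO was below all WT libraries. The AID-Yeats2 libraries at 18.6 and 18.0 CPM and the Supt7l KO libraries at 21.6 and 18.5 CPM were above all WT libraries. All groups overlapped. The changes were 0.01 ± 0.219, 0.10 ± 0.218 and 0.19 ± 0.215 (SE).

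The intronic peak at +6.3 kb had the largest Kat2b difference from WT. It held 12.6, 14.0, 12.1 and 6.75 CPM in AID-Zzz3, 7.92, 9.44, 9.11 and 11.9 CPM in AID-Yeats2, 6.62, 6.51, 9.84 and 8.28 CPM in Supt7l KO and 7.26, 4.16, 8.81 and 9.08 CPM in WT. The AID-Yeats2 libraries at 9.44, 9.11 and 11.9 CPM and the Supt7l KO library at 9.84 CPM were above all WT libraries. In AID-Zzz3, 3 of 4 libraries were above them as well, and the log2 change of 0.62 ± 0.254 (SE) did not pass the test (adjusted p = 0.230, edgeR). Within replicates 1 and 2 alone it was 1.2 and within replicates 3 and 4 alone 0.07. The peak at +21.4 kb held 11.9, 11.5, 12.1 and 17.9 CPM in AID-Yeats2, all above the 11, 7.17, 11.2 and 11.5 CPM of WT by a small gap. Its log2 change was 0.38 ± 0.238 (SE, adjusted p = 0.511, edgeR), and 4.09% of all peaks were higher in AID-Yeats2 without overlap.

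The 11 Kat2b peaks had a median log2 change of 0.09 in AID-Zzz3, 0.18 in AID-Yeats2 and 0.01 in Supt7l KO against WT, and of 0.12 between the ATAC lines and Supt7l KO. All peaks outside promoters had medians of 0.05, 0.05, -0.04 and 0.09 in these comparisons. The 42 other peaks within 1 Mb of Kat2b had medians of 0.21, 0.17, -0.12 and 0.30. The largest difference between the ATAC lines and Supt7l KO at Kat2b was at -12.5 kb, 0.56 (0.03 to 1.09, adjusted p = 0.136, edgeR). This peak held 4.66, 8.19, 9.29 and 5.00 CPM in AID-Zzz3 and 5.15, 8.62, 9.35 and 10.7 CPM in AID-Yeats2, against 3.68, 6.51, 4.00 and 6.35 CPM in Supt7l KO, with overlap. Summed over its peaks, Kat2b held 178 ± 17.6 CPM in AID-Zzz3, 183 ± 8.94 CPM in AID-Yeats2, 167 ± 14.7 CPM in Supt7l KO and 165 ± 7.88 CPM in WT (SD, n = 4).

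Beyond the Kat2b peaks, the next peak downstream lies in an exon of Sgo1, which protects sister chromatid cohesion, at a distance of 19499 bp. It averaged 9.28 ± 2.56 CPM in AID-Zzz3, 10.3 ± 2.16 CPM in AID-Yeats2, 5.12 ± 0.854 CPM in Supt7l KO and 9.55 ± 1.72 CPM in WT (SD, n = 4). It was called between the ATAC lines and Supt7l KO (log2 0.93 ± 0.240, SE, adjusted p = 0.00398, edgeR), where 8.57% of all peaks were called higher. It was not called between Supt7l KO and WT (-0.89, adjusted p = 0.0754, edgeR). The next peak upstream, assigned to Pp2d1, and both peaks assigned to Gm6919 inside Kat2b were not called in any comparison.

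At Tada3, the promoter was lower in the ATAC lines than in Supt7l KO. It held 43.3, 57.8, 52.9 and 35.8 CPM in AID-Zzz3, 53.5, 51.5, 52.7 and 49.8 CPM in AID-Yeats2, 74.1, 69.0, 69.2 and 68.5 CPM in Supt7l KO and 59.6, 61, 61.9 and 66.9 CPM in WT. The 8 libraries of the ATAC lines were all below the 4 of WT, and the 4 of Supt7l KO all above them, although the gap to the nearest WT library was 1.79 CPM for AID-Zzz3 and 1.56 CPM for Supt7l KO. The log2 change between the ATAC lines and Supt7l KO was -0.50 ± 0.0996 (SE, 95% interval -0.70 to -0.30, adjusted p = 1.91e-04, edgeR), lower in 8 of 8 libraries. In this direction 8.98% of all peaks and 24.0% of promoter peaks were called, and 9.83% of promoter peaks were lower without overlap.

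Promoters as a class were lower in this comparison, with a median of -0.21 over 15556 genes, and 9.31% of promoters had a lower value than Tada3. Among the 1555 promoters within 5 percentile points of its level, a set chosen after the data were seen, the median was -0.26, 48.2% were called lower and 7.27% had a lower value. The call was lost when offsets that follow the level of a peak were used (-0.27, adjusted p = 0.0513, edgeR with loess offsets, where the median promoter was at -0.10) and kept in the other 21 of 22 alternative fits. The value was -0.47 within replicates 1 and 2 (adjusted p = 0.0134, edgeR) and -0.53 within replicates 3 and 4 (adjusted p = 0.00701). The summed ES cell markers were also higher in each Supt7l KO library than in all other libraries. In this comparison 2 of 9 ES cell markers were called lower, with a median of -0.20, against 24.0% and -0.21 for all promoters. The part of the markers in the difference was not tested.

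**Figure D4:**
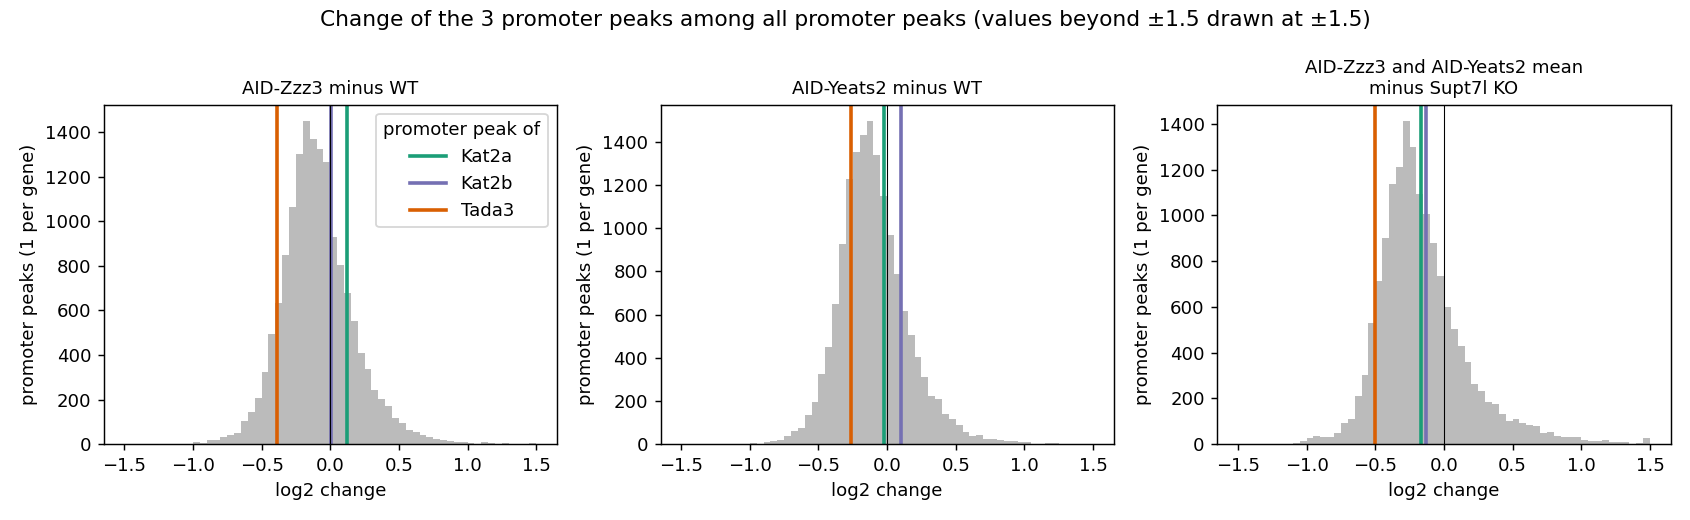
Distribution of the log2 change of 15556 promoter peaks (grey, 1 per gene) in 3 comparisons, with the promoter peaks of Kat2a, Kat2b (internal promoter) and Tada3 as lines. Tada3 lies on the lower side in each panel (-0.39, -0.27 and -0.50). Kat2a and Kat2b lie above the median promoter in each panel, with 56.8% to 81.8% of promoters below them.

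Against WT the Tada3 promoter did not pass the test in the fit without a block. The log2 change was -0.39 ± 0.117 (SE, adjusted p = 0.0795, edgeR) in AID-Zzz3, -0.27 ± 0.116 (adjusted p = 0.287) in AID-Yeats2 and 0.17 ± 0.113 (adjusted p = 0.560) in Supt7l KO, and these 3 comparisons share the WT libraries. The median promoter changed by -0.11, -0.12 and 0.09. Groups without overlap were found for 7.29% of promoters as lower in AID-Zzz3, 8.32% as lower in AID-Yeats2 and 5.21% as higher in Supt7l KO. The AID-Zzz3 value depended on its libraries and passed without the second one (-0.51, adjusted p = 0.0233, edgeR), while without the fourth it was -0.27 (adjusted p = 0.341). It also passed with a term that set replicates 1 and 2 apart from 3 and 4 (-0.39, adjusted p = 0.0401, edgeR) and with a replicate block (-0.40, adjusted p = 0.0365), and was -0.24 within replicates 1 and 2 (adjusted p = 0.682) and -0.53 within replicates 3 and 4 (adjusted p = 0.0862). No such fit called it in AID-Yeats2 or Supt7l KO. AID-Yeats2 and AID-Zzz3 differed by 0.13 (-0.11 to 0.37, adjusted p = 0.980, edgeR), so no difference between the ATAC lines was detectable.

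The Tada3 intron peak held 28.0, 22.2, 26.5 and 22.8 CPM in AID-Zzz3, 30.9, 30.4, 29.5 and 30.4 CPM in AID-Yeats2, 34.8, 30.6, 30.8 and 19.1 CPM in Supt7l KO and 34.5, 34.7, 36.0 and 25.3 CPM in WT. All AID-Yeats2 libraries were above all AID-Zzz3 libraries, while both overlapped WT through replicate 4 of WT. The log2 change from WT was -0.40 ± 0.154 (SE, adjusted p = 0.186, edgeR) in AID-Zzz3, -0.11 ± 0.151 in AID-Yeats2 and -0.18 ± 0.150 in Supt7l KO. AID-Yeats2 differed from AID-Zzz3 by 0.29 ± 0.159 (SE, adjusted p = 0.956, edgeR), and 1.55% of all peaks were higher there without overlap. In Supt7l KO the promoter value was above WT and the intron value below it, and neither passed. The 99 other peaks within 1 Mb of Tada3 had median changes of -0.02, -0.02 and -0.01 in the 3 mutants against WT and -0.03 between the ATAC lines and Supt7l KO. The nearest peaks on either side, at Ttll3 and Gm20589, were not called in any comparison.

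The authors' deposited table gives close values for Tada3. It lists the promoter at a log2 change of -0.39 in AID-Zzz3 (adjusted p = 0.0933, DESeq2), -0.26 in AID-Yeats2 (adjusted p = 0.334) and 0.17 in Supt7l KO (adjusted p = 0.600) against WT. The name of that table holds the words batch and day, so the authors' fit may include a term that the main fit here leaves out.

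Levels over the 16 libraries were used to find the promoters most like each of the 3, by the Pearson correlation of log2 CPM, as a description in which all points share library, depth and scaling. For Tada3 these were Itpa, which clears deaminated purine nucleotides (r = 0.94, Spearman rho = 0.91), Dag1, the matrix receptor dystroglycan (r = 0.92, rho = 0.89) and Galt, an enzyme of galactose breakdown (r = 0.92, rho = 0.87). For Kat2a they were Crmp1 (r = 0.89), Aifm1 (r = 0.85) and Mir129-1 (r = 0.84), and for the internal Kat2b promoter Cyr61 (r = 0.80), Slc14a1 (r = 0.75) and Jag2 (r = 0.73). The 99th percentile of r over all other promoters was 0.82 for Tada3, 0.63 for Kat2a and 0.54 for Kat2b, and the median was 0.33, 0.09 and 0.01.

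The direct partners of the 3 proteins were read in the same fit. Tada2a, the adaptor of ATAC, had a promoter level of 16 ± 3.88 CPM in AID-Zzz3, 15.1 ± 6.03 CPM in AID-Yeats2, 20.9 ± 2.22 CPM in Supt7l KO and 20.6 ± 2.98 CPM in WT (SD, n = 4). Its log2 change was -0.39 in AID-Zzz3 (adjusted p = 0.355, edgeR), -0.44 in AID-Yeats2 (adjusted p = 0.304), 0.01 in Supt7l KO (adjusted p = 0.986) and -0.43 between the ATAC lines and Supt7l KO (adjusted p = 0.0705). Another Tada2a peak, at a transcript end 896 bp from a start, was called in that last comparison (-0.68, adjusted p = 0.00735, edgeR). There 8.98% of all peaks and 24.0% of promoter peaks were called lower. Sgf29, a reader of methylated H3K4, had 1 intronic peak that was not called in any comparison. The shared partner list holds 2 names of this same gene, Sgf29 and Ccdc101, and had 0 promoter peaks measured. Peaks of Tada2b were not analysed here.

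Of the ATAC subunits, 10 of 13 names had a promoter peak, and of the SAGA subunits 15 of 22. Both lists hold alternative names of the same gene, such as Zzz3 and Atac1 or Supt20 and Supt20h. A name without a peak is therefore not always a gene without one. Neither list had a called promoter against WT in edgeR or DESeq2. At an unadjusted p under 0.05 there were 2, 3 and 2 ATAC subunits and 3, 4 and 2 SAGA subunits in AID-Zzz3, AID-Yeats2 and Supt7l KO, where 18.3%, 18.8% and 11.4% of all promoters had one. Their median log2 changes from WT were -0.22, -0.20 and 0.13 for ATAC subunits and -0.16, -0.12 and 0.15 for SAGA subunits. Between the ATAC lines and Supt7l KO, 5 ATAC subunits (Zzz3, Dr1, Pole3, Pole4 and Chrac1) and 4 SAGA subunits (Usp22, Atxn7l2, Sf3b3 and Taf5l) were lower and 0 higher, with medians of -0.36 and -0.26, where 24.0% of all promoters were called lower and their median was -0.21. Across alternative fits the count was 1 to 8 for ATAC subunits (2 to 6 with 1 library left out) and 2 to 5 for SAGA subunits.

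In the list used for other lysine acetyltransferases, 18 of 19 names had a promoter peak, and the activity of each member was not checked. Against WT, Atf2 (-0.44, adjusted p = 0.0481, edgeR) and the cohesin acetyltransferase Esco2 (-0.47, adjusted p = 0.0377) were lower in AID-Yeats2, where 0.849% of promoters were called lower, and Esco2 was higher in Supt7l KO (0.58, adjusted p = 0.00237), where 0.508% of promoters were called higher. The AID-Yeats2 count of 2 was 0 to 1 in each fit with 1 library left out, and the Supt7l KO count of 1 was 0 to 1. In AID-Zzz3, 0 of 18 were called and 6 had an unadjusted p under 0.05 (18.3% of all promoters), and DESeq2 also called 0. Between the ATAC lines and Supt7l KO, 10 of 18 were lower and 0 higher, with a median of -0.36, again where 24.0% of all promoters were called lower. This count was 4 to 12 across alternative fits. Kat7, the enzyme of the HBO1 complex, changed by -0.58 (adjusted p = 3.53e-05, edgeR). Kat2a and Kat2b were not among the acetyltransferase genes called in that comparison. Of the promoters at a level like theirs, 5.59% for Kat2a and 12.4% for the internal Kat2b promoter were called lower. The lack of a call therefore does not set them apart from the list.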

How the data were processed

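ATAC-seq counts per peak were read from 1 deposited table of 70150 peaks (mm10), which the authors made by merging peaks over libraries. Per the submitters' processing notes, DESeq2 1.16.1, bedtools 2.26.0, HOMER, MACS2 2.1.1.20160309, Bowtie2 2.2.6 and bcl2fastq 2.17.1.14 were used. The Ensembl release of the annotation, 94, is from the file headers. The deposited raw counts are whole numbers per peak and library, and the deposited DESeq2 columns hold log2 fold changes and p-values, per the file headers. The 16 columns of normalised values were not used. Starts are printed counted from 1.

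The tests were made in R 4.3.3 by edgeR 4.0.16 (quasi-likelihood F tests, two-sided, TMM scaling, filterByExpr, 4 genotypes in 1 fit of 16 libraries without covariates). The filter took out 458 peaks, so 69692 were tested. Calls are peaks whose p, adjusted over these by Benjamini and Hochberg, was under 0.05, and every adjusted p without another tool named is from edgeR. Intervals are 95% by the fit's t quantile, log2 CPM used a prior count of 2, and the fit was tested on simulated data. Promoter peaks had a start within 1000 bp, with the highest one taken per gene. For Kat2b this was the internal promoter (15.1 CPM on average), because the CpG island peak (34.1 CPM) lies 1119 bp from a start. Alternatives were library totals, DESeq2 size factors, loess offsets, DESeq2 1.42.0, no filter, replicate blocks, replicate sets, only the groups compared, and each library left out. Figures were drawn with matplotlib 3.10.9.

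Named were all 14 peaks, the nearest peaks beyond them and those between them, the 3 promoters most like each, list members called against WT (at most 3 per list and comparison) and Sgf29, Tada2a and Tada2b. The lists were ATAC subunits, SAGA subunits, the shared partner, other lysine acetyltransferases, ES cell markers and fibroblast markers. The further subunits and Kat7 named between the ATAC lines and Supt7l KO were chosen after their values were seen. The genes and lists were chosen with earlier results of these data known.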

Additional observations from a re-analysis of the deposited data

Results flagged for a closer look

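The Tada3 promoter is listed because the ATAC lines and Supt7l KO differed in it by a direct test, with a log2 change of -0.50 (adjusted p = 1.91e-04, edgeR), lower in 8 of 8 libraries. In the same comparison 24.0% of all promoters and 48.2% of those of like level were called lower, and with loess offsets the call was lost (-0.27, adjusted p = 0.0513, edgeR).

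In 4 of 56 groups of 4 libraries, 1 library stood far from the other 3 by Dixon's criterion, and chance gives about 1 in 20. At the Kat2b peak 21.4 kb after the start, the fourth AID-Yeats2 library held 17.9 CPM while the others held 11.5 to 12.1 CPM. At the same peak the second WT library held 7.17 CPM and the others 11 to 11.5 CPM. At the Tada3 promoter, the first Supt7l KO library held 74.1 CPM and the others 68.5 to 69.2 CPM. At the Tada3 intron peak, the fourth WT library held 25.3 CPM and the others 34.5 to 36.0 CPM.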

How the results depend on the processing

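Of the 14 peaks, the count called in AID-Zzz3 against WT was 0, and became 1 (the Tada3 promoter) with a replicate block, with a term that set replicates 1 and 2 apart from 3 and 4 and without AID-Zzz3 replicate 2, so that it was 0 to 1 when 1 library was left out. Between the ATAC lines and Supt7l KO the count of 1 became 0 with loess offsets. For each library, log2 CPM minus the mean of its genotype was correlated with that of libraries of the other genotypes. In these deviations, same-numbered libraries correlated at 0.0163 to 0.111, over 0.1 for 1 of 24 pairs. By the mean correlation, 9 of 16 libraries were closest to their own number, so the numbers were not taken as pairs. Libraries of replicates 1 and 2, and likewise of 3 and 4, with unlike numbers correlated at 0.0231 to 0.103, while the 48 pairs across these sets were at -0.109 to -0.0167. Because the deviations within a genotype sum to 0, positive values within the sets go with negative values across them. That sum does not fix which pairs are positive, and all pairs within a set were. Libraries of the same set thus deviated together, and the main fit holds no term for the sets. The labels tie no clone or day to a library. With the replicate block the Tada3 promoter changed by -0.40 in AID-Zzz3 (adjusted p = 0.0365, edgeR), by -0.27 in AID-Yeats2 (0.204), by 0.17 in Supt7l KO (0.488) and by -0.50 between the ATAC lines and Supt7l KO (3.33e-05).

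Over all peaks the calls in AID-Zzz3 numbered 683, in AID-Yeats2 573 and in Supt7l KO 757. With the replicate block they were 1257, 1158 and 1139, and with the block for replicate sets 1289, 1203 and 1182. Replicates 1 and 2 alone gave 25, 22 and 116, and replicates 3 and 4 alone 422, 130 and 347. Leaving out 1 library gave 225 to 936, 167 to 478 and 165 to 931, and 0 to 1 for AID-Yeats2 against AID-Zzz3. Between the ATAC lines and Supt7l KO, 12235 peaks became 4528 in replicates 1 and 2 and 5952 in replicates 3 and 4. The cause was not tested, except that the replicate sets hold fewer samples.

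Of 1316 recomputed log2 changes of the 14 peaks, 101 had another sign, but only 1 went beyond its own SE in both fits. That was the Kat2b peak 15.7 kb after the start in AID-Zzz3, at 0.19 with all libraries and -0.37 in replicates 1 and 2. The weakest Kat2b peaks, such as that at +90.6 kb, held 8 to 44 counts per library, which limits what could be detected there.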
